A study of Sus scrofa with 37 samples.

Results

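Cultured islets of pigs labelled High or Low for islet density were compared by RNA sequencing, library against library. The members were the islet samples that carry a High or Low label of their own and have a column of counts, which gave 17 of the 37 samples of the series. There were 8 High and 9 Low libraries, each named for 1 animal. The High animals were 11KS28, 12FS131, 12FS133, 12FS135, 12FS161, 15AS28, 15LS29 and 16CS60. The Low animals were 12FS162, 14BS54, 14ES72, 14ES73, 14HS26, 14HS27, 14HS7, 15LS26 and 16IS5. All were purified from the organ and kept free-floating for 7 days at 37 °C in ME 199 medium, in humidified air without CO2. The only labelled difference between the groups is the density label, and the labels give no breed, genotype, age or sex, and no definition of High or Low. The series was made to describe genes that differ between higher and lower islet density, and it also holds 50 mg pieces of the duodenal lobe of the pancreas, 17 of which have a label and a column.

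Islets are clusters of endocrine cells within the exocrine pancreas. Beta cells release insulin, alpha cells glucagon, delta cells somatostatin and PP cells pancreatic polypeptide. Purification removes most of the enzyme-secreting acinar tissue, and during free-floating culture cells that came along with the islets can be lost. Pig islets are studied as a source of tissue for transplantation into patients with diabetes.

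The libraries held 3237653 to 5313277 counts in the High group and 3480726 to 5186343 in the Low group, and 3 counts, taken as the floor of detection, were worth 0.565 to 0.927 CPM, the count relative to a total of 1000000 per library. No 2 libraries of the same label were alike to within sampling noise (chi-square of 5.11 or more per degree of freedom in all 64 pairs). High replicate 6 (15AS28) stood apart. Its factor from the trimmed mean of M-values (TMM), the scaling used in the tests, was 0.606, against 0.89 to 1.165 in the other 16, and its 10 most abundant genes held 52.3% of counts. In the islets of 11KS28 the source name reads pancreas, while the title reads islets. The labels also confound density with other properties of the animals. The animal code began with 14 in 6 of 9 Low and 0 of 8 High libraries. KDM5D and EIF1AY, genes of the Y chromosome that male animals carry, reached 3 or more counts together in 6 of 8 High and 1 of 9 Low libraries. Below, these are called libraries with Y-linked counts, and libraries under 3 such counts are called libraries without. The label of the islet sample differed from that of the same animal's pancreas piece in 4 of the 15 libraries whose animal has a labelled pancreas sample.

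The marker genes of islet cells were abundant in both groups. INS was between 18851 and 61440 CPM and GCG between 4291 and 17748 CPM over the 17 libraries, and the beta cell zinc transporter SLC30A8 and the beta cell factor NKX6-1 had counts in every library. The beta cell factor MAFA was low throughout, at 0 to 6.11 CPM. Acinar markers were near the floor in most libraries and uneven in the rest. CPA1, which encodes the digestive enzyme carboxypeptidase A1, had a median of 3.99 CPM in High and 4.63 CPM in Low, with 330 CPM in 15LS29 (High) and 78.5 CPM in 12FS162 (Low) as the highest of each group. Of the lymphocyte markers, CD3E was counted in 4 and MS4A1 in 7 of 17 libraries, while CD79A was counted in all 17, at medians of 1.73 CPM in High and 1.35 CPM in Low. Fibroblast (COL1A1), endothelial (PECAM1), myeloid (CD68) and Schwann cell (SOX10) markers were counted in all 17 libraries.

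No gene passed the test between High and Low islets. Of 12070 genes tested with edgeR, 0 were higher (0%) and 0 lower (0%) in High at an adjusted p under 0.05, and the lowest adjusted p was 0.999. DESeq2 and limma-voom also gave 0 in both directions. At an unadjusted p under 0.05 edgeR had 257 genes (2.13%), of which 140 (1.16%) were higher and 117 (0.969%) lower, below the 5% that evenly spread p-values would give, which is 604 genes. DESeq2 had 481 such genes of 23879 tested and limma-voom 244 of 12070. In CPM, which are not TMM-scaled, there was no gene for which every High library lay above, or every Low library lay above, all libraries of the other label. The TMM factor of 15AS28 (High), 0.606, makes its CPM low beside the others, and scaled values were not compared in this way. The p-values measure the spread between these samples, each from its own animal as the titles name them.

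**Figure D1:**
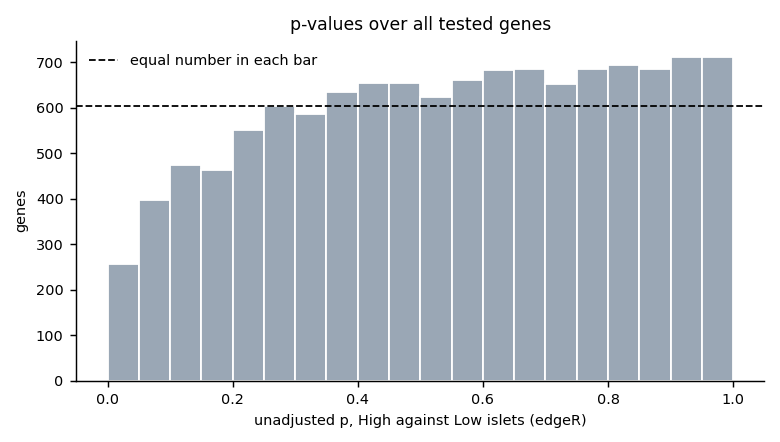
Number of genes (vertical axis) by unadjusted p of the High against Low comparison of islets, in bars of width 0.05 (horizontal axis). The bar below 0.05 holds 257 genes, under the dashed line that marks equal numbers in each bar, and the bars grow towards 1.

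In the fit without covariates, the data limit how large a difference between the labels could have been missed for most genes. The median log2 difference of High minus Low over the 12070 genes was 0.01 and its median standard error (SE) was 0.16, with quartiles of 0.12 and 0.23. The 95% interval of the difference lay within a 2-fold change in either direction for 11394 genes (94.4%), and within a 1.5-fold change for 8310 genes (68.8%). An estimate beyond 2-fold was reached by 12 genes upwards and 14 downwards. The common biological coefficient of variation between animals of the same label was 24.1%. The median SE was 0.215 with the presence of Y-linked counts as a covariate, and 0.251 without animals whose code begins with 14. The intervals above do not bound a density difference that such confounded properties could mask.

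Insulin transcripts did not separate the labels. INS ranged from 18851 over a median of 35141 to 61440 CPM in High and from 29479 over 36674 to 58387 CPM in Low. In CPM, which are not TMM-scaled, the highest and the 3 lowest libraries were all High, with the Low group lying inside the High range. The highest of those 3, 12FS133, was at 29451 CPM, beside 29479 CPM in 12FS162 (Low). The lowest was 15AS28, whose TMM factor of 0.606 makes its CPM low beside the others. Scaled values were not ranked. The log2 difference was −0.05 (SE 0.19, 95% interval −0.45 to 0.35, adjusted p = 0.999). As a share of all counts, INS held 3.69% ± 1.40 (SD, n = 8) in High and 4.06% ± 0.982 (SD, n = 9) in Low. The difference of −0.366 percentage points did not exceed the spread between animals (exact permutation p = 0.534 over 24310 arrangements, two-sided, adjusted p = 0.668 over 5 such values). In bulk islets fewer cells of a type and less RNA per cell cannot be told apart.

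The other hormone genes overlapped between the labels as well. GCG, the glucagon gene, ranged from 4291 over 7951 to 17748 CPM in High and from 4426 over 10637 to 17314 CPM in Low, a log2 difference of 0.13 (SE 0.34). SST, the somatostatin gene, ranged from 99.5 over 454 to 1224 CPM in High and from 191 over 923 to 1476 CPM in Low, a difference of −0.46 (SE 0.43). Each of these genes had libraries of both labels near the top and near the bottom of its range. PPY, the pancreatic polypeptide gene, ranged from 20.4 over 78 to 120 CPM in High and from 42.5 over 124 to 531 CPM in Low. In 5 of 9 Low libraries PPY was above every High library, and all 5 came from animals whose code begins with 14. The log2 difference for PPY was −1.12 (SE 0.48, 95% interval −2.13 to −0.10, adjusted p = 0.999). Without the animals whose code begins with 14 it was 0.42 (adjusted p = 1), so its sign rested on them.

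GAL, which encodes the neuropeptide galanin, varied most between animals among the hormone genes and did not follow the label. It ranged from 2.78 over 258 to 904 CPM in High and from 38.5 over 271 to 1256 CPM in Low, a log2 difference of −0.43 (SE 0.83, adjusted p = 0.999). The 5 animals whose code begins with 15 or 16 held 2.78 to 48.6 CPM, 3 of them High and 2 Low, and the other 12 animals 96.8 to 1256 CPM. This grouping was chosen after the values were seen and was given no test. GHRL, NPY, CCK and GAST did not pass the filter on low counts, and IAPP, PYY and UCN3 had no identifier with that symbol.

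**Figure D2:**
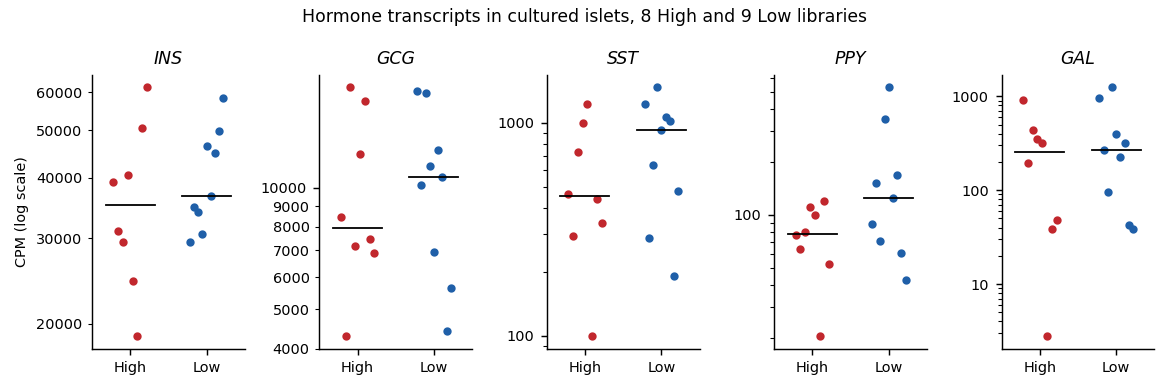
CPM on a log axis for the 5 tested hormone genes, 1 point per library, with the group median as a bar. High (red) and Low (blue) overlap for every gene, and PPY shows 5 Low libraries above the highest High value of 120 CPM.

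The balance between hormones overlapped too. INS made up 75.8% ± 13.9 (SD, n = 8) of the counts of INS, GCG, SST and PPY together in High and 76.9% ± 10.6 (SD, n = 9) in Low (exact permutation p = 0.848, adjusted p = 0.848). These are shares of counts, with no correction for transcript length. The share ran from 53.3% to 89.4% in High and from 61.3% to 91.4% in Low. The 4 animals of codes 15 and 16 other than 15AS28 held the values 86.3%, 89.4%, 91.4% and 90.4%. The lowest value, 53.3%, was that of 15AS28, and 12FS131, of code 12, held 87%. This grouping was chosen after the values were seen and was given no test. The 10 most abundant genes of each library held 33.3% ± 8.81 (SD, n = 8) of counts in High and 30.2% ± 1.78 (SD, n = 9) in Low (exact permutation p = 0.402, adjusted p = 0.668). The wider spread in High came from 15AS28 at 52.3% and 16CS60 at 21.8%. Library totals averaged 4004427 ± 688459 (SD, n = 8) and 4408165 ± 529941 (SD, n = 9) counts (exact permutation p = 0.19, adjusted p = 0.51).

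Most lists of endocrine identity and secretion had medians near 0. The 7 tested genes of the delta, PP and epsilon cell list, which include SST and PPY, had a median of −0.27 (−0.26 without 15AS28). Of these 7, 5 estimates were below 0, and 0 passed. Among 15 tested beta cell genes 0 passed and the median log2 difference was −0.09, beside 0.01 for all tested genes, with 13 of the 15 estimates below 0. G6PC2, which encodes an islet glucose-6-phosphatase subunit, ranged from 62.4 over 194 to 249 CPM in High and 169 over 205 to 299 CPM in Low (−0.27, SE 0.15). SLC2A2, the beta cell glucose transporter, had a difference of −0.27 (SE 0.23), and −0.14 (SE 0.18) without 15AS28. The 13 alpha cell genes had a median of 0, and the alpha cell transcript TTR a difference of −0.16 (SE 0.16), and −0.07 (SE 0.14) without 15AS28. Among 15 islet transcription factors 0 passed, with a median of 0.01. PAX6, a factor of all islet endocrine cells, had the lowest p of that list, at 244 over 374 to 452 CPM in High and 384 over 427 to 538 CPM in Low (−0.19, SE 0.09). The 19 genes of glucose sensing and excitability had a median of −0.04 and the 19 genes of exocytosis 0.03. For all 19 exocytosis genes the 95% interval lay within 2-fold. Among 14 granins and processing enzymes, which pack and cleave prohormones, the median was −0.06. CHGB, the chromogranin B gene, was the furthest below, at −0.42 (SE 0.29).

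Genes of the other cell types showed no difference that passed. Of the 5 acinar genes tested, the median difference was 0.25 and the range −0.09 to 1.54, the latter for CPA1 with an SE of 1.17. The summed acinar list reached 579 CPM in 1 High and 291 CPM in 1 Low library, against medians of 29.4 and 28 CPM. The 18 ductal genes had a median of 0.02. For the 20 fibroblast and stellate genes the median was 0.22, and 0.03 without 15AS28. IGFBP5, an insulin-like growth factor binding protein gene of that list, had a difference of 0.67 (SE 0.30), and 0.25 (SE 0.17) without 15AS28. The 12 endothelial genes had a median of −0.04, and −0.34 without 15AS28. KDR, the main receptor for vascular endothelial growth factor, ranged from 29.1 over 32 to 50.1 CPM in High and from 32.8 over 51.1 to 89.4 CPM in Low (−0.38, SE 0.22, and −0.60, SE 0.17, without 15AS28). The 8 myeloid genes had a median of 0.08, and no adipocyte or erythroid gene passed the low-count filter.

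Stress and metabolic genes gave 0 calls as well. Over all 38 lists, 518 tested genes included 24 (4.63%) at an unadjusted p under 0.05, against 2.13% of all tested genes, and 0 passed after adjustment. Of these 24, 6 were mitochondrially encoded. Of the 36 lists with a tested gene, 27 had a median within 0.1 of 0. The 22 genes of the unfolded protein response had a median of 0.02 and the 12 interferon response genes 0.03. Heat shock genes had a median of −0.14 (−0.25 without 15AS28), with HSPH1, a co-chaperone, at 53.1 over 93.2 to 276 CPM in High and 74.9 over 138 to 791 CPM in Low (−0.97, SE 0.63, and −1.56, SE 0.60, without 15AS28). Cholesterol synthesis and uptake genes had a median of −0.20, with 16 of 19 estimates below 0. MSMO1, a sterol oxidase of that list, ranged from 9.27 over 18.6 to 28.1 CPM in High and from 16.7 over 24.2 to 45 CPM in Low (−0.49, SE 0.19, adjusted p = 0.999). For ENO2, a glycolytic enzyme that also marks endocrine and nerve cells, the difference was 1.38 (SE 0.54), with a highest value of 74.1 CPM in High and 33 CPM in Low.

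**Figure D3:**
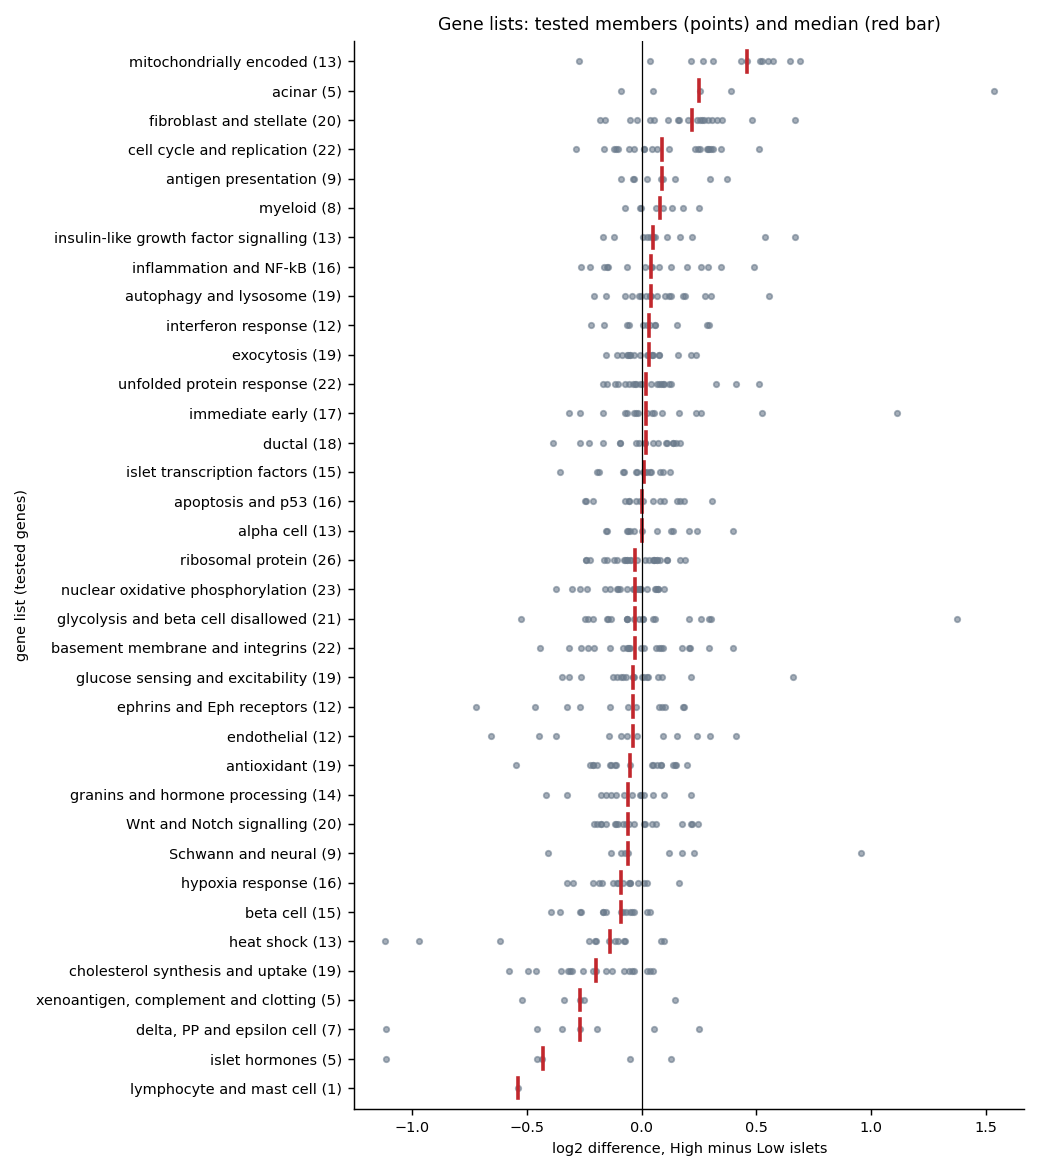
Log2 difference of High minus Low islets (horizontal axis) for each tested gene (points) of 36 gene lists (vertical axis, number of tested genes in brackets), with the list median as a red bar. Most medians lie within 0.1 of 0, and mitochondrially encoded genes have the highest median, at 0.46 (0.15 without 15AS28).

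Mitochondrially encoded genes had the highest median of the lists, at 0.46, with 12 of 13 estimates above 0 and 6 at an unadjusted p under 0.05, and none passed. Without 15AS28 the median was 0.15, below that of the acinar genes at 0.39. Together the 13 listed mitochondrially encoded genes held 7.47% ± 2.25 (SD, n = 8) of counts in High and 6.35% ± 0.918 (SD, n = 9) in Low (exact permutation p = 0.204, adjusted p = 0.51). Identifiers without a symbol are not part of this share. Without 15AS28 the difference of 1.12 percentage points was 0.425. The highest share, 12.3%, was that of 15AS28 and the lowest, 4.34%, that of 16CS60, both High.

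Within this list 2 High libraries differed from all the others in the balance between genes. ATP8, a subunit of the mitochondrial ATP synthase, was at 35.8 CPM in 15AS28 and 10.3 CPM in 16CS60, and at 1013 to 2264 CPM in the other 15 libraries. ND1, a subunit of respiratory complex I, was at 2664 and 941 CPM in these libraries, and at 4481 to 7975 CPM in the other 15. ATP6, the ATP synthase gene whose reading frame overlaps that of ATP8, was at 20445 CPM in 15AS28 and 7274 CPM in 16CS60, against 5443 to 8799 CPM. ATP6 was not alone in this. In 15AS28, CYTB, ND3, ND4, ND5, ND6, COX1, COX2 and COX3 lay above those 15 libraries too, COX1 at 33888 CPM against at most 16717 CPM. ND2 and ND4L of 15AS28 lay within their range. In 16CS60 alone, ND2, ND4L, COX1, COX2 and COX3 also lay below those 15 libraries, at 2223, 288, 9064, 3901 and 2645 CPM against at least 3543, 396, 11925, 5092 and 3788 CPM. In the same 2 libraries an identifier without a symbol, ENSSSCG00000035520, was at 3752 and 1538 CPM, and at 7.18 to 20.3 CPM in the other 15. Its log2 difference of High minus Low was 6.41 (SE 1.54) in the islet comparison, with an adjusted p of 0.999, and the other 6 High libraries held 7.97 to 20.3 CPM beside 7.18 to 15.8 CPM in the Low group. These genes were singled out after their values were seen. Reads of overlapping genes cannot be told apart without the counting options, and the part of such counting in these values was not tested.

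**Figure D4:**
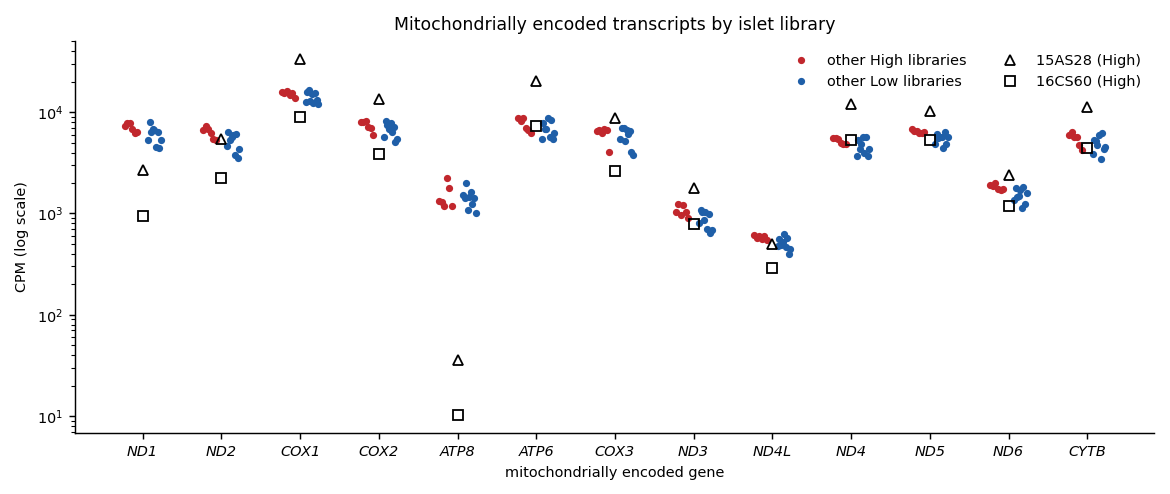
CPM on a log axis for the 13 mitochondrially encoded genes, 1 point per islet library. The open triangle (15AS28) and square (16CS60), both High, fall far below the other libraries for ATP8 and below them for ND1.

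The genes of lowest p are given as values, since none passed. The 10 higher in High had log2 differences of 0.29 to 2.67 and the 10 lower −1.97 to −0.28, all with an adjusted p of 0.999. LTBP3, which encodes a binding protein that holds latent transforming growth factor beta in the matrix, ranged from 7.63 over 12.8 to 318 CPM in High and from 7.54 over 11.6 to 15 CPM in Low (2.67, SE 0.75). It was high in 12FS135 at 318 CPM and 12FS161 at 173 CPM, and the other 6 High libraries lay at 7.63 to 16.7 CPM. Both animals carry a Low label on their pancreas piece. When the islets were grouped by the pancreas label the LTBP3 difference was −2.50 (SE 0.96, adjusted p = 0.421), and among animals whose islets and pancreas piece have the same label it was 0.21 (adjusted p = 0.997).

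IFI6, an interferon-induced gene, also had high values in part of the High group. It ranged from 3.42 over 25.1 to 76.1 CPM in High and from 4.63 over 9.64 to 16.4 CPM in Low (1.91, SE 0.56). The 4 High libraries above every Low library were 12FS131, 12FS133, 15AS28 and 15LS29, at 39.8 to 76.1 CPM, and the other 4 High libraries held 3.42 to 10.4 CPM. The interferon response list, of which 0 of 12 tested genes passed, had a highest difference of 0.29. SERPINB9, an inhibitor of the cytotoxic protease granzyme B, ranged from 5.25 over 9.02 to 13.4 CPM in High and 4.02 over 6.35 to 9.44 CPM in Low (0.60, SE 0.19). NMI, another interferon-inducible gene, had a difference of 0.48 (SE 0.16). COPS7A, GKAP1, FRG1, CKAP4, RWDD2A and BET1 had differences of 0.29 to 0.48. CKAP4, a membrane protein of the endoplasmic reticulum, had 7 of 9 Low libraries below the lowest High one, and a difference of only 0.38 (SE 0.13).

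Among genes lower in High, CNNM1 fell into separate levels within the Low group. This gene, of a family linked to magnesium transport, ranged from 1.13 over 3.51 to 4.32 CPM in High and from 3.73 over 6.35 to 27.8 CPM in Low (−1.97, SE 0.51). It was at 19.8 to 27.8 CPM in 12FS162, 14BS54, 14ES72 and 14HS27 and at 3.73 to 6.35 CPM in the other 5 Low libraries. ARG1, the urea cycle enzyme arginase, ranged from 2.17 over 5.02 to 13.7 CPM in High and from 4.82 over 18.3 to 38.4 CPM in Low (−1.63, SE 0.42), with 6 Low libraries above every High one. NXN, a redox-active thioredoxin relative, ranged from 2.73 over 4.73 to 6.59 CPM in High and from 5.58 over 7.69 to 12.7 CPM in Low (−0.80, SE 0.22), with 7 Low libraries above every High one. Each of these 3 genes kept at least 2 Low libraries within the High range.

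GPX3, which encodes a secreted glutathione peroxidase, ranged from 99.5 over 156 to 220 CPM in High and from 175 over 215 to 372 CPM in Low (−0.55, SE 0.16). ESM1, a secreted proteoglycan of endothelial cells, ranged from 229 over 274 to 436 CPM in High and from 342 over 431 to 925 CPM in Low (−0.66, SE 0.21). PRKCA, a protein kinase C isoform, had a difference of −0.50 (SE 0.15), KCNG3, a potassium channel subunit, −0.41 (SE 0.13) and DNAJC18, a co-chaperone relative, −0.33 (SE 0.11). In each of these 5 genes 5 to 7 High libraries lay below the lowest Low one. GPX3 was the furthest below among the 19 tested antioxidant genes, whose median was −0.05.

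KDM6A, a histone H3 demethylase, and USP9X, a deubiquitinase, are X-linked, and their values moved with the Y-linked counts. KDM6A was at 36 to 68.8 CPM in the 7 libraries with Y-linked counts and at 80.7 to 114 CPM in the others, except 15AS28 at 44.2 CPM. USP9X was at 410 to 554 CPM in those 7 and at 571 to 693 CPM in the others, except 15AS28 at 254 CPM. These CPM are not TMM-scaled. The factor of 15AS28, 0.606, makes its CPM low beside the others, and that of 16CS60, 1.165, makes its CPM high. Whether the split by Y-linked counts, or the place of 15AS28 outside it, holds in scaled values was not tested. KDM6A ranged from 36 over 61 to 101 CPM in High and from 56.2 over 95.2 to 114 CPM in Low (−0.52, SE 0.15). The High library at 101 CPM was 16CS60, which has 1 Y-linked count, and the Low library at 56.2 CPM was 12FS162, which has 382. With the presence of Y-linked counts as a covariate the KDM6A difference was −0.10 (adjusted p = 0.899) and the USP9X difference −0.18 (adjusted p = 0.705), beside −0.28 (SE 0.09) without it. Whether the other values depend on the sex of the animals cannot be told apart from the label, because the Low group has 1 animal with Y-linked counts.

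**Figure D5:**
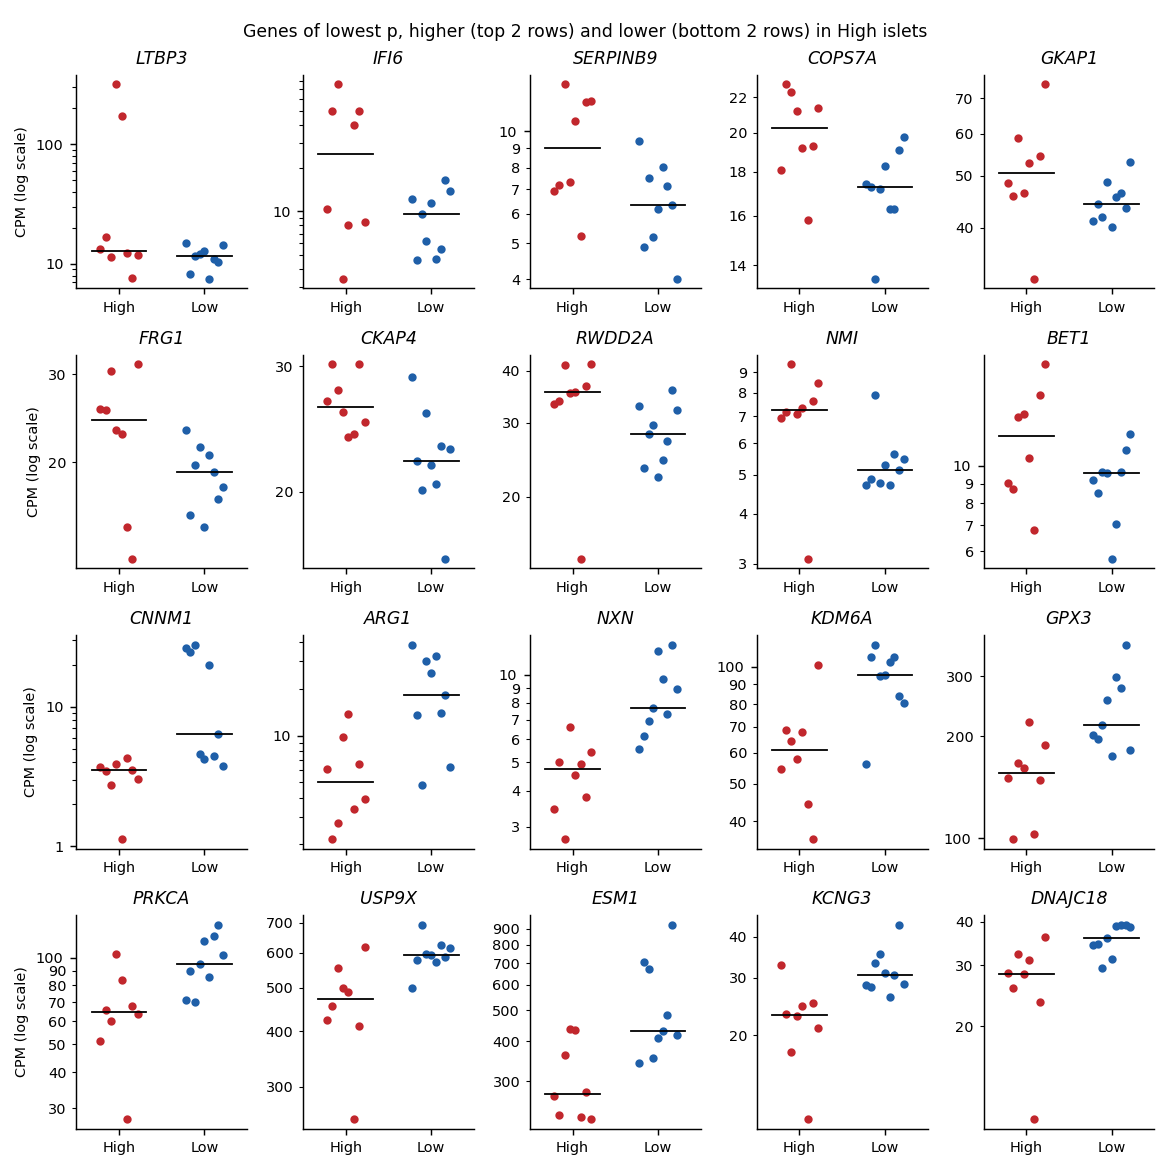
CPM on a log axis for the 10 genes of lowest p in each direction, 1 point per library, with the group median as a bar. The LTBP3 panel shows 2 High libraries at 318 and 173 CPM far above the rest, the CNNM1 panel 4 Low libraries at 19.8 to 27.8 CPM, and every panel shows overlap.

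Other groupings of the same libraries were examined because the label is confounded. With the presence of Y-linked counts as a covariate 0 genes passed, and 996 of 12070 had an unadjusted p under 0.05. That covariate also moved other named values by over 1.5 times, none of which passed. LTBP3 was at 1.26, NXN at −0.38 and RWDD2A at 0.19, and of the hormone genes INS was at 0.18, GCG at 0.22, SST at −1.37 and GAL at −2.88. With the animals of code 14 left out 0 passed, with 187 of 12782 genes at an unadjusted p under 0.05. Among the 11 animals whose islets and pancreas piece share a label 0 passed, with 586 of 12196 genes at that level. Grouped by the label of the pancreas piece, 0 passed and 1200 of 12095 were at that level. Of the 10 libraries with fewer than 3 Y-linked counts, 2 were High (15AS28, and 16CS60 with 1 such count) and 8 Low. Between these, 5 genes passed as higher and 5 as lower. They included ENSSSCG00000035520 and ATP8, described above. Among the lower genes were also ENSSSCG00000018095 and ENSSSCG00000018073, identifiers without a symbol. The first was at 0.927 and 0.302 CPM against 22 to 74.2 CPM, and the second at 0 CPM in both against 5.75 to 16.4 CPM. GBA3, a cytosolic beta-glucosidase, passed as well, at 9.57 and 15.7 CPM in the 2 High libraries and 46.9 to 76.2 CPM in the 8 Low ones (−2.05, SE 0.22, adjusted p = 0.000412). PER1, a circadian clock gene, was at 107 and 138 CPM against 54.2 to 87.3 CPM (1.12, SE 0.17, adjusted p = 0.0145). In the 6 High libraries with Y-linked counts GBA3 was at 27 to 65 CPM and PER1 at 51.3 to 98.8 CPM, which overlaps the Low range. This choice of libraries was made after the data were seen.

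The islet difference was also tested against the High against Low difference of the pancreas pieces in 1 fit of 34 libraries. The islet difference lay above the pancreas difference in 3183 of 14337 genes (22.2%) and below it in 2535 (17.7%). Without the 7 pancreas libraries under 1000000 counts, all labelled Low, these counts were 52 and 9 of 15210 genes. That takes out 7 of the 9 Low pieces, so the part of depth and the part of fewer Low libraries cannot be told apart. None of the hormone genes passed this test (adjusted p = 0.0752 to 0.97). For LTBP3 the islet difference was 2.67 and the pancreas difference −1.50 in separate fits, and the difference between them in the joint fit, 3.77 (SE 0.91), passed (adjusted p = 0.00222), but not without the shallow libraries (2.63, adjusted p = 0.317). SERPINB9 passed too (2.03, SE 0.44, adjusted p = 0.000692), and did not without the shallow libraries (0.97, adjusted p = 0.406). CNNM1 had estimates below 0 in both tissues, −1.97 in islets and −2.34 in pancreas in separate fits (−0.06 between them in the joint fit, adjusted p = 0.952, and −1.77 without the shallow libraries, adjusted p = 0.417). Its pancreas value passed on its own (edgeR, adjusted p = 0.00105), in a fit that includes the 7 shallow Low libraries. No fit of the pancreas pieces alone was run without them, and the share of all genes passing in that fit is not given here. The islets and the pieces come largely from the same animals.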

How the data were processed

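Gene counts were used as deposited, as whole-number counts of reads per Ensembl pig gene in 1 column per library. Per the submitters' processing notes, the build was susScr3 and the tools were HISAT2 2.0.2, Subread, FastQC and edgeR, with no role given. How reads were counted, including strand and annotation, is not given in the sources used here, so overlapping, antisense and near-identical genes are uncertain. A table of Ensembl identifiers gave a symbol for 14857 of 25880. Animal code and tissue tied columns to samples, and 1 column that matched no sample was not used. The islets of 15LS27 and 15LS30, labelled High, were not analysed here, and those of 12AS51, labelled N/A, stayed out of the comparisons.

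CPM values use the library total, and tests use TMM-scaled totals, so their signs can differ. The test of genes was that of edgeR 4.0.16 under R 4.3.3 (filterByExpr, robust quasi-likelihood test, two-sided, Benjamini-Hochberg threshold of 0.05), with no covariate and only the 17 islet libraries. The comparison of tissues used 34 libraries. DESeq2 1.42.0, limma 3.58.1 and other scalings, filters, covariates and subsets were alternatives, and those on Y-linked counts, on codes 15 or 16 and on sample quality weights were chosen after seeing the data. Single values per library were compared by an exact two-sided permutation test of means. The fits were tested on simulated data.

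Members and gene lists were chosen with earlier results of these data known. There are 38 lists of 774 genes, of which 674 have an identifier and 518 were tested. Named genes were the 10 of lowest p in each direction with a symbol and a mean of at least 5 CPM in 1 group, given as values since none passed, and the tested hormone genes. Genes named for a list are among its 4 of lowest p or its fixed markers. Animals differ between High and Low, so nothing pairs the groups. Wilson intervals and floors cover counting error only, while intervals of log2 differences include the spread between animals.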

Additional observations from a re-analysis of the deposited data

Results flagged for a closer look

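In 4 of 60 groups of values examined, 1 library lay far from the others of its label, where chance gives about 1 in 20 groups. The groups share libraries and include genes chosen by their p, so that rate is a rough guide only. Of the 4, 3 concern 15AS28 (High). The 13 listed mitochondrially encoded genes held 12.3% of its counts, against 4.34% to 7.69% in the other High libraries. This share leaves out identifiers without a symbol, among them ENSSSCG00000018061 and ENSSSCG00000018063, which held 25.74% and 12.29% of its counts. RWDD2A was at 14.2 CPM there, against 33.2 to 41.4 CPM, and NMI at 3.09 CPM, against 6.91 to 9.42 CPM. These CPM are not TMM-scaled. The factor of 15AS28 was 0.606, against 0.89 to 1.165 in the others, which makes its CPM low beside theirs. NMI was also high in 14ES72 (Low) at 7.91 CPM, against 4.71 to 5.65 CPM in the other Low libraries.

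For 7 of the 20 genes of lowest p (5 of the 10 higher and 2 of the 10 lower in High) the islet difference between High and Low differed from that in the pancreas pieces. The differences between tissues were 3.77 for LTBP3, 2.03 for SERPINB9, 0.96 for COPS7A, −0.85 for CKAP4, 0.88 for RWDD2A, −1.61 for KDM6A and −1.67 for USP9X (edgeR interaction test, adjusted p = 0.000692 to 0.036). Of all tested genes 22.2% passed above and 17.7% below, so a share of this size is near the background. Without the 7 pancreas libraries under 1000000 counts none of these 7 passed (adjusted p = 0.162 to 0.875). That setting also takes out most of the Low pancreas pieces.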

How the results depend on the processing

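No gene passed in 21 of 22 other settings or on leaving out any 1 of the 17 libraries (224 to 370 genes at an unadjusted p under 0.05). The exception, the 10 libraries without Y-linked counts, gave 5 higher and 5 lower. The difference between tissues fell from 5718 genes to 61 without the shallow pancreas libraries, a setting that takes out most of the Low pieces. Some counts at an unadjusted p under 0.05 moved by over 1.5 times from the 257 of 12070 tested genes in the main fit. They were 1038 of 23879 with no low-count filter, 481 of 23879 with DESeq2 and 586 of 12196 in animals whose tissues share a label. The settings with 23879 tested genes have a larger base than the 12070 of the main fit. Their counts therefore do not compare directly with 257, and a larger count there is not a larger share to the same extent. With the Y-linked covariate and the code there were 436 of 12070. Above 5% of tested genes were the pancreas label (1200 of 12095), the Y-linked covariate (996 of 12070) and the libraries without Y-linked counts (1779 of 13047). No paired analysis was possible because the High and Low libraries come from different animals.

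None of the 4 shares passed a test in any setting run, and the library total had no other setting. In animals whose tissues share a label the High minus Low differences changed sign: 0.44 percentage points for the INS share of counts, 6.22 for the INS share among hormone genes, −0.263 for the 10 most abundant genes and −0.111 for mitochondrially encoded genes. The INS share among hormone genes also turned with medians (5.55). On leaving out 1 library it ran from −3.08 to 2.08, above 0 without High replicates 3, 5 or 6 or Low replicates 8 or 9 (0.936, 0.467, 2.08, 0.686, 0.562). The other 3 ran from −0.716 to −0.108, from 0.348 to 4.71 and from 0.425 to 1.56.

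Signs of log2 differences that turned, none of which passed, were as follows. INS was 0.04 with the leading code number, 0.16 in animals of the same label, 0.30 by the pancreas label, 0.18 with the Y-linked covariate, 0.04 in the libraries without Y-linked counts, and 0.03 and 0.02 without High replicate 5 and Low replicate 9 (−0.16 to 0.03 on leaving out 1 library). GCG was −0.34, −0.49, −0.11 and −0.19 in animals of the same label, by the pancreas label, with quality weights and without High replicate 6 (−0.19 to 0.25 on leaving out 1 library). PPY was 0.28 with the leading code number and 0.42 without code 14, and on leaving out 1 library ran from −1.26 to −0.68, the latter without Low replicate 5 (14HS26). GAL was 0.52 and 0.08 with the library total and the fibroblast level, and 0.01 without Low replicate 4 (−0.98 to 0.01 on leaving out 1 library). LTBP3 was −2.50 by the pancreas label, and KDM6A 0.01 with the leading code number and 0.17 with both added covariates. The cause was not tested. Depth limits genes near the floor, since 3 counts were worth 0.565 to 0.927 CPM, and the median SE over tested genes was 0.16.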

Other observations

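The islet library of 12AS51, whose density label reads N/A, held 6702589 counts. Of these, 43.49% fell to ENSSSCG00000018061 and 31.12% to ENSSSCG00000018063, identifiers without a symbol, against 5.03% to 25.74% and 2.82% to 12.29% in the 17 labelled islet libraries. INS held 0.209% of its counts (95% Wilson interval 0.205% to 0.212%), against 1.89% to 6.14%. The INS share among the 4 main hormone genes was 80%, which lies within the range of the labelled libraries.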
